A study of Mus musculus with 4 samples.

Results

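The expression and the open chromatin of 5 regulators of B cell commitment, Ebf1, Pax5, Foxo1, Pou2af1 and Bach2, were examined across hematopoietic stem and progenitor cell (HSPC) nuclei of the mouse bone marrow. The 5 genes were 5 of 32272 gene rows, and 118 of 174339 peaks of open chromatin lay within 50 kb of their annotated start sites. The genes were chosen from earlier results of the same data, in which their RNA was high in B precursor nuclei and that of Pax5 and Foxo1 differed between the libraries. The contrast of B-lineage nuclei with the other nuclei is therefore given as a description, without a test.

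EBF1 and PAX5 are DNA-binding factors that start and then hold the B cell program, EBF1 by opening B-lineage genes and PAX5 by activating them and silencing genes of other lineages. FOXO1 is a forkhead factor whose targets include the interleukin 7 receptor gene Il7r and the recombination genes Rag1 and Rag2. Pou2af1 encodes OBF1, a coactivator that binds octamer factors on B cell promoters, and BACH2 is a basic leucine zipper repressor that restrains myeloid and plasma cell genes in lymphoid cells.

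The mice were C57BL/6 males of 8 weeks, either with a silk ligature around the molars for 14 days (Lig) or untreated for the same 14 days (Ctrl), and Lin-cKit+ bone marrow cells were sorted from both groups. Single-nucleus multiome sequencing gave, for each nucleus, the number of RNA molecules by their unique molecular identifiers (UMIs) and the number of transposase cuts in open chromatin (ATAC). The RNA and the ATAC library of each group made up the 4 samples, with 1 sample in each of 4 label groups and no replicates, and cells of several mice were pooled within a group. The nuclei of both groups were in a single matrix, told apart by a barcode suffix of 1 or 2 that the labels do not link to Ctrl or Lig.

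The suffixes are called library 1 and library 2 here. The labels tie neither of them to a group, so no value was read as an effect of ligature, and no test or p-value was computed. Of 18961 barcodes, 13619 nuclei were kept, 5905 in library 1 with 10294527 UMIs and 118239764 peak counts and 7714 in library 2 with 12537328 UMIs and 128699726 peak counts. The median nucleus held 1641 and 1516.5 UMIs, respectively. Barcode sequences found in both libraries numbered 72 among the kept nuclei, and leaving out those 144 nuclei left the counts of called genes and peaks among the 5 genes as they were. Library 2 carried more RNA of the ribosomal RNA locus, with 53.4% of UMIs in pro-B-like nuclei against 40.6% in library 1. The summed level of 8 neutrophil progenitor markers in pro-B-like nuclei was also higher there, at 362 against 170 UMIs in counts-per-million (CPM), and none of these markers was at 0 in either library. The results on libraries are given below with and without the genes at the ribosomal RNA locus, and the part of the neutrophil progenitor markers in them was not tested. Values in parentheses after a level, share or ratio are 95% limits for counting error alone, with exact Poisson limits for levels and Clopper-Pearson limits for shares.

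Clusters were built without the 5 genes and without the peaks near them, and were named from lists of marker genes with the ending "-like". No list stood for common lymphoid progenitors, which the study annotated, so nuclei named lymphoid-primed multipotent-like may include them. Pro-B-like nuclei comprised 1047 nuclei of library 1 (17.7%) and 514 of library 2 (6.66%), in 2 clusters of which the shallower held 251 and 128 nuclei. B-like nuclei, marked by Ms4a1, Bank1 and Cd22, comprised 190 and 83. Together they form the B-lineage nuclei, 1237 in library 1 and 597 in library 2. The 17 pro-B markers summed to 3264 CPM in pro-B-like nuclei of library 1 and 1759 CPM in those of library 2, against 268 and 110 CPM outside the B lineage, and none was at 0 in pro-B-like nuclei of either library. Of 10 erythroid markers, 7 were at 0 in pro-B-like nuclei of library 2 and 1 in those of library 1, and their sum was 16.3 and 18.3 CPM.

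The DNA under the peaks on which the results turn is shown as the 300-base centres of 5 peaks and the bases before the Foxo1 start, all from GRCm38.p6, plus strand, with the motif matches found by search in capitals. The peaks upstream of Ebf1, of Pax5 and of Bach2 and the peak over the Pou2af1 start were among those with the highest B-lineage folds. The Foxo1 start is shown because its peak was open in every population with at least 50 nuclei and carried the palindrome of the EBF factors. The names give the distance from the first annotated start of the gene.
Ebf1, 42.4 kb upstream (chr11:44574813-44575112): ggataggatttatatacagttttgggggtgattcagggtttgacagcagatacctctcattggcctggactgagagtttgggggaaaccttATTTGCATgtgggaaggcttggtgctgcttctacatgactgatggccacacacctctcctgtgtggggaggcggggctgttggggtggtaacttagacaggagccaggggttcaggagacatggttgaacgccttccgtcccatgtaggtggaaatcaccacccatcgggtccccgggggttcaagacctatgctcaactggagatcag
Pax5, 31.6 kb upstream (chr4:44741917-44742216): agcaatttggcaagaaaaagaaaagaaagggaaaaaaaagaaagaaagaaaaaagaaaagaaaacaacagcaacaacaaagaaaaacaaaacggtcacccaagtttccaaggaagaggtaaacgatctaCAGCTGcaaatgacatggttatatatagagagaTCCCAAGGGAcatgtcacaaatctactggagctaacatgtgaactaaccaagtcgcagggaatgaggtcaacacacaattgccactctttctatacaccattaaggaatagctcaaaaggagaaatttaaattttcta
Pax5, 18.7 kb upstream (chr4:44729024-44729323): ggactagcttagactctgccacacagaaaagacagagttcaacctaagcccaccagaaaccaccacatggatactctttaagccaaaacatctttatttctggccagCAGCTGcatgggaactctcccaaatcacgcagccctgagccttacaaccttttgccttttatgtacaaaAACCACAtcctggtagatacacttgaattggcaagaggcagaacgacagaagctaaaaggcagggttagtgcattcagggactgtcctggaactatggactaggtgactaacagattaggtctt
Pou2af1, peak over the start (chr9:51213247-51213546): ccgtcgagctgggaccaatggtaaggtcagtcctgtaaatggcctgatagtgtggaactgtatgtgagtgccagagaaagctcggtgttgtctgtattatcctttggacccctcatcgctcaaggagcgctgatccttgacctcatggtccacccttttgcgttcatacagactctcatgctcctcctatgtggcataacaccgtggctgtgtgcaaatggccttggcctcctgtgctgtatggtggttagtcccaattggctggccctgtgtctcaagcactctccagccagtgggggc
Bach2, 6.9 kb upstream (chr4:32231726-32232025): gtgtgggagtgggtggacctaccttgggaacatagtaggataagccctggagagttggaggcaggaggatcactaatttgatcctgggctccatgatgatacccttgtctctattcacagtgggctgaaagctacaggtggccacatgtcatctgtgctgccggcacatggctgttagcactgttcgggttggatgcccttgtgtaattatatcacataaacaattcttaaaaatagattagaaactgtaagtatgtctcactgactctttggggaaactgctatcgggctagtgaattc
Foxo1, before the start (chr3:52268173-52268335): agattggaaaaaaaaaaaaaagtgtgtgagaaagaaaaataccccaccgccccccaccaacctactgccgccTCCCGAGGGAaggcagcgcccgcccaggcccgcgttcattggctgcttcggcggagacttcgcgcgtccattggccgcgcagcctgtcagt

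The capitals mark an octamer (ATTTGCAT) upstream of Ebf1, the E2A sequence CAGCTG followed by the EBF palindrome, TCCC and GGGA parted by any 2 bases, 31.6 kb upstream of Pax5, the E2A sequence and a RUNX match (TGTGGTT, read on the minus strand) 18.7 kb upstream of Pax5, and the EBF palindrome before the Foxo1 start. The Pou2af1 and Bach2 peaks held none of the 8 sequences searched in the 300 bases shown, which at Pou2af1 end before the start itself. Searches covered both strands, and a match is a description of the letters, not of binding.

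Ebf1 RNA was concentrated in the B lineage and was highest at the pro-B-like stage. Ebf1 (ENSMUSG00000057098, chr11:44617317-45008091, plus strand) reached 4819 CPM (4717 to 4924) in pro-B-like nuclei of library 1, on 8425 UMIs, and 1887 CPM (1789 to 1989) in those of library 2, on 1390 UMIs. B-like nuclei followed with 3472 CPM (3206 to 3754) and 1262 CPM (1028 to 1534), and in both libraries the pro-B-like interval lay above the B-like one. Lymphoid-primed multipotent-like nuclei, which carry Flt3 and Satb1 and precede the lymphoid branches, came next with 558 CPM (507 to 613) and 143 CPM (118 to 171), also clear of the populations around them. The next highest levels among populations with at least 50 nuclei were 347 CPM in progenitor NK or T cell (pro-NK/T)-like nuclei of library 1 and 58.2 CPM in cluster 8, which has no name, of library 2. Across all such populations outside the B lineage, the lymphoid-primed one included, 17 in library 1 and 14 in library 2, the median was 89.8 and 19.9 CPM and the lowest level 11.3 and 0 CPM.

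In some populations outside the lymphoid branches of library 1, a large share of the few Ebf1 UMIs lay in a small number of nuclei. In erythroid progenitor (EryP)-like nuclei, which should lack Ebf1, 85 UMIs were counted in library 1 (137 CPM) and 9 in library 2 (17.6 CPM). Of the 85 UMIs, 70 lay in 4 of 344 nuclei, 1 of which held 37, and 3 of these 4 nuclei had doublet scores in the top 8% of their library. In granulocyte-monocyte progenitor (GMP)-like nuclei of library 1, 39 of 79 UMIs lay in 3 of 483 nuclei, all 3 within the top 8%. In hematopoietic stem cell (HSC)-like nuclei of library 1, 9 of 37 UMIs (24.3%) lay in 1 nucleus, also within the top 8%. The other HSC-like nuclei held fewer than 5 each. The remaining populations outside the lymphoid branches were not counted in this way. In pro-NK/T-like nuclei, 52 Ebf1 UMIs lay in 10 of 111 nuclei of library 1 and 6 in 5 of 89 nuclei of library 2. In lymphoid-primed multipotent-like nuclei of library 1, 35 of 435 nuclei held at least 5 Ebf1 UMIs each, together 295 of 433 (68.1%), and 9 of these nuclei were within the top 8%. In library 2, 5 of 516 such nuclei held 31 of 114 UMIs (27.2%). The doublet caller itself marked only 4 nuclei in all, so these scores are a ranking and not calls.

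Pax5 RNA, in contrast to Ebf1 RNA, was higher in B-like than in pro-B-like nuclei. Pax5 (ENSMUSG00000014030, chr4:44524757-44710487, minus strand) was measured by 753 UMIs in pro-B-like nuclei of library 1, or 431 CPM (401 to 463), and by 86 UMIs in library 2, or 117 CPM (93.4 to 144). B-like nuclei reached 746 CPM (626 to 883) in library 1 and 187 CPM (105 to 309) in library 2, so the 2 stages had separate intervals in library 1 and overlapping ones in library 2. Lymphoid-primed multipotent-like nuclei had 42.5 CPM (29.3 to 59.7) and 16.3 CPM (8.66 to 27.8), and no other population with at least 50 nuclei was above these values. In both libraries the lymphoid-primed interval lay below that of pro-B-like nuclei.

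Foxo1 RNA had overlapping intervals in B-like and pro-B-like nuclei. Foxo1 (ENSMUSG00000044167, chr3:52268336-52353221, plus strand) had 533 UMIs in pro-B-like nuclei of library 1 and 77 in those of library 2, which gave 305 CPM (280 to 332) and 105 CPM (82.5 to 131). In B-like nuclei it was at 348 CPM (268 to 446) in library 1 and 137 CPM (68.6 to 246) in library 2. Pro-NK/T-like nuclei, which carry Gata3, Tcf7 and Bcl11b, had the highest level outside the B lineage among populations with at least 50 nuclei, where 19 UMIs in library 1 gave 127 CPM (76.3 to 198) and 5 UMIs in library 2 gave 44.4 CPM (14.4 to 104). In library 2 the 26 nuclei of cluster 18, with 2 UMIs, were at 46.1 CPM (5.58 to 166). In library 1 the lymphoid-primed multipotent-like level was 87.6 CPM (68.0 to 111), and in library 2 it was 16.3 CPM (8.66 to 27.8).

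Pou2af1 had the fewest UMIs of the 5 genes and was higher in B-like nuclei. Pou2af1 (ENSMUSG00000032053, chr9:51213708-51240080, plus strand) had 170 and 27 UMIs in pro-B-like nuclei, or 97.2 CPM (83.2 to 113) in library 1 and 36.6 CPM (24.2 to 53.3) in library 2, and 216 CPM (153 to 295) and 162 CPM (86.5 to 278) in B-like nuclei, with separate intervals in both libraries. Outside the B lineage, 4 of 17 populations with at least 50 nuclei in library 1 and 7 of 14 in library 2 had no UMI, and the highest level was 16.2 and 3.69 CPM. In EryP-like nuclei of library 2 the count was 0 of 510644 UMIs, with an upper bound of 7.22 CPM.

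Bach2 RNA, like that of Pax5 and Pou2af1, was higher in B-like than in pro-B-like nuclei. Bach2 (ENSMUSG00000040270, chr4:32238804-32586108, plus strand) was at 956 CPM (911 to 1003) in pro-B-like nuclei of library 1, on 1672 UMIs, and at 391 CPM (347 to 439) in those of library 2, on 288 UMIs. In B-like nuclei it was at 3367 CPM (3105 to 3645) and 1312 CPM (1073 to 1589). Conventional dendritic cell progenitor (cDCP)-like nuclei, marked by Cd74 and H2-Aa, followed at 366 CPM (266 to 491) in library 1 and 203 CPM (132 to 297) in library 2. The Bach2 level in pro-NK/T-like nuclei was 320 CPM (236 to 425) in library 1 and 115 CPM (61.4 to 197) in library 2. That in lymphoid-primed multipotent-like nuclei was 289 CPM (252 to 329) and 113 CPM (90.6 to 138). Plasmacytoid dendritic cell progenitor (pDCP)-like nuclei had 289 CPM (187 to 427) and 130 CPM (42.1 to 302), the latter on 5 UMIs in 31 nuclei. Neighbours in the order of these levels overlapped. Cluster 5, which has no name, had 185 CPM (160 to 211) and 76.7 CPM (60.7 to 95.6). HSC-like nuclei had 126 CPM (103 to 152) and 49.0 CPM (36.8 to 63.9), against 44.3 and 16.3 CPM of Ebf1 in the same nuclei. At least 1 Bach2 UMI was counted in every population with at least 50 nuclei, but on 2 UMIs in common monocyte progenitor (cMoP)-like and 3 in basophil progenitor (BaP)-like nuclei of library 2, and levels at or below those of EryP-like nuclei, 67.9 and 29.4 CPM, were not read as expression.

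**Figure D1:**
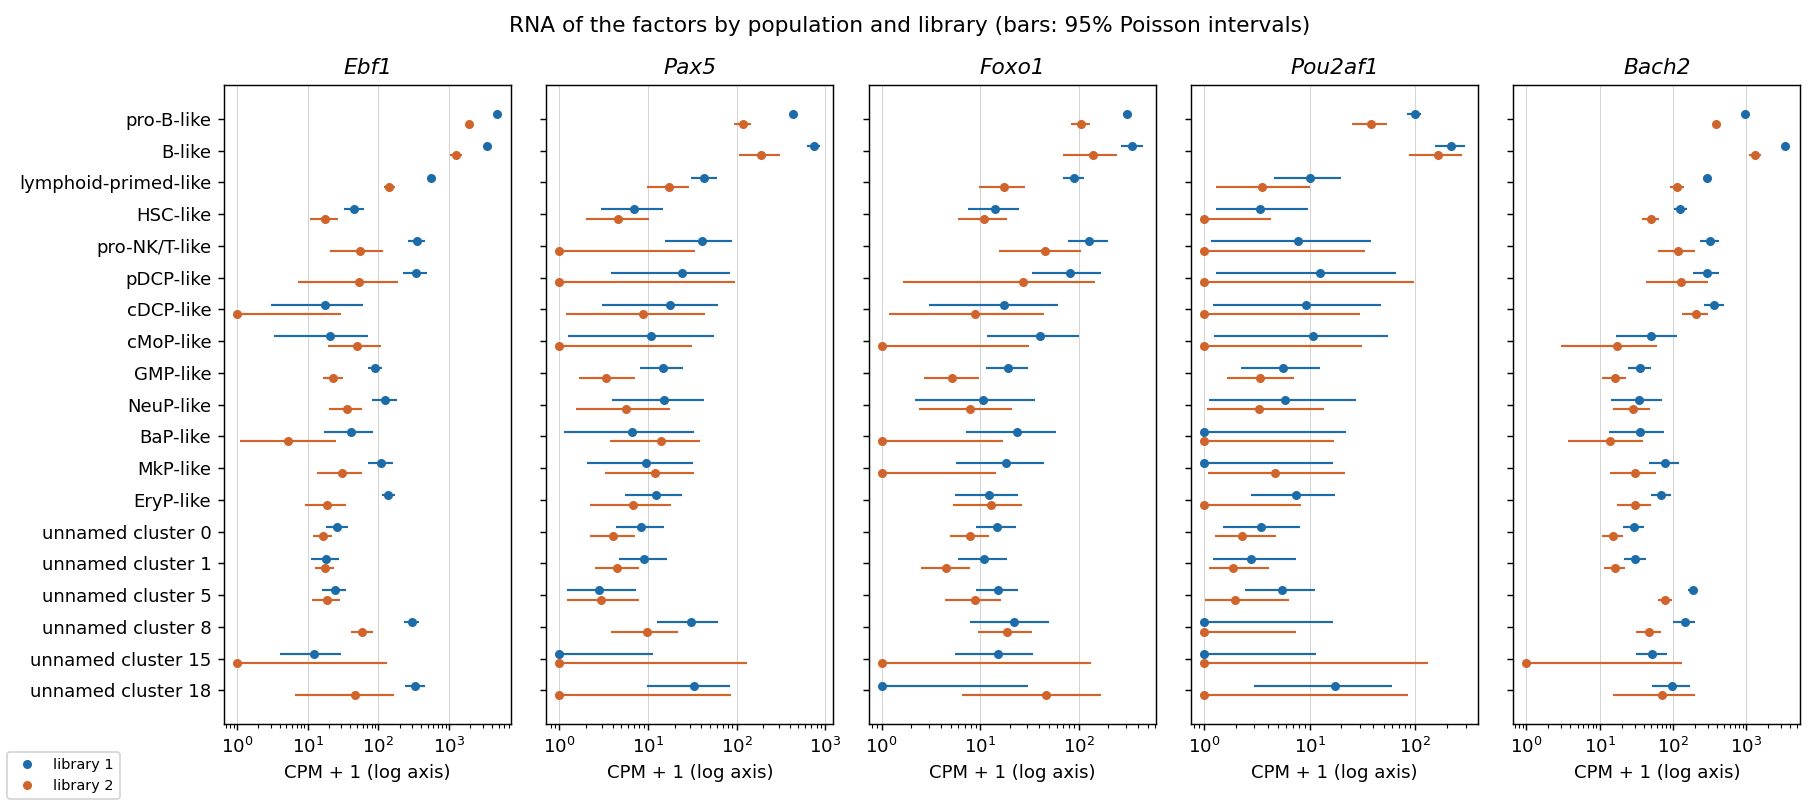
RNA level of the 5 genes (x axis, CPM + 1 on a log axis) in each population (y axis) of library 1 (blue) and library 2 (orange), with 95% Poisson intervals as bars. Pro-B-like and B-like nuclei stood above the other populations for all 5 genes in library 1. Bach2 also had raised levels in cDCP-like, pro-NK/T-like and lymphoid-primed nuclei and, in library 1, in pDCP-like nuclei.

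The balance between Ebf1 and Bach2 differed across populations, and in pro-B-like and B-like nuclei it was close in both libraries. Ebf1 made up 83.4% (82.7 to 84.2%) of the summed Ebf1 and Bach2 UMIs in pro-B-like nuclei of library 1 and 82.8% (80.9 to 84.6%) in those of library 2. In B-like nuclei its share was 50.8% (47.9 to 53.6%) and 49.0% (42.0 to 56.1%). In HSC-like nuclei it was 26.1% (19.1 to 34.1%) and 25.0% (15.5 to 36.6%), on 37 and 105 UMIs in library 1 and 18 and 54 in library 2. Ebf1 in HSC-like nuclei, at 44.3 and 16.3 CPM, was below its level in EryP-like nuclei, 137 and 17.6 CPM. The HSC-like share was therefore not read as a balance of expression. In lymphoid-primed multipotent-like nuclei, on 433 and 224 UMIs in library 1 and 114 and 90 in library 2, the share was 65.9% (62.1 to 69.5%) and 55.9% (48.8 to 62.8%), with overlapping intervals. In cDCP-like nuclei the share was 4.35%, 2 against 44 UMIs, in library 1, and 0 against 26 UMIs in library 2, with an upper bound of 13.2%. In EryP-like nuclei, with few UMIs of either gene, it was 66.9% (58.0 to 75.0%) and 37.5% (18.8 to 59.4%).

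Set against all nuclei outside the B lineage, each of the 5 genes was over 10-fold higher in B-lineage nuclei of both libraries. The fold, on CPM plus 1, was 40.2 in library 1 and 60.4 in library 2 for Ebf1, 34.0 and 21.9 for Pax5, and 21.6 and 22.8 for Pou2af1. It was 12.6 and 12.4 for Foxo1 and 10.97 and 12.8 for Bach2. All 5 genes passed a fold of 4 in both libraries, whereas 1.13% of the 12541 genes tested did so and 0.431% were at least 4-fold lower. Since these genes were chosen for this pattern, nothing is read from that count. The median log2 fold of the 5 genes was 4.43 and 4.45, and that of all genes tested was 0.03 and 0.06.

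Most pro-B-like nuclei held RNA of Ebf1, and many held RNA of several of the 5 genes at once in library 1. The share of pro-B-like nuclei with an Ebf1 UMI was 96.6% (95.3 to 97.6%) in library 1 and 85.4% (82.1 to 88.3%) in library 2, at median depths of 1572 and 1275.5 UMIs. In EryP-like nuclei the share was 5.52% and 2.37%, at 1574.5 and 1319 UMIs. With every nucleus thinned to 500 UMIs, the share in pro-B-like nuclei was 84.1% and 59.7%, against 2.28% and 0.833% in EryP-like nuclei. The thinning left out 17 and 3 pro-B-like nuclei and 6 and 0 EryP-like nuclei. It also counted UMIs of the ribosomal RNA locus, which made up 40.6% and 53.4% of UMIs in pro-B-like nuclei. These nuclei held a median of 660 and 401.5 genes, so the thinned shares were not matched between libraries for depth in other genes. Without thinning, at least 3 of the 5 genes were detected in 51.8% of pro-B-like nuclei of library 1 and in 12.1% of those of library 2. In EryP-like nuclei at least 3 were detected in 1.16% (4 nuclei) and in 0 of 337 nuclei.

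Within pro-B-like nuclei of library 1, Bach2 was detected more often where Ebf1 was detected, but nuclei without Ebf1 were shallower. Bach2 was detected in 62.9% (59.8 to 65.9%) of the 1011 nuclei with an Ebf1 UMI and in 38.9% (23.1 to 56.5%) of the 36 without, at median depths of 1598 and 980 UMIs. For Pax5 the shares were 45.6% (42.5 to 48.7%) and 27.8% (14.2 to 45.2%), for Foxo1 37.5% (34.5 to 40.6%) and 19.4% (8.19 to 36.0%) and for Pou2af1 14.6% (12.5 to 17.0%) and 11.1% (3.11 to 26.1%), all with overlapping intervals. In library 2, with 439 nuclei with and 75 without an Ebf1 UMI, Pax5 was detected in 15.0% (11.8 to 18.7%) and 14.7% (7.56 to 24.7%) and Bach2 in 37.4% (32.8 to 42.1%) and 26.7% (17.1 to 38.1%), also with overlapping intervals.

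The shallower of the 2 pro-B-like clusters, with Cacna2d1 and Kcnh8 among its leading genes, had higher CPM of Ebf1, Foxo1 and Bach2 than the deeper one in library 1. Ebf1 was at 7005 CPM (6671 to 7351) against 4479 CPM (4373 to 4587), Foxo1 at 628 CPM (531 to 737) against 255 CPM (230 to 281) and Bach2 at 1416 CPM (1268 to 1577) against 885 CPM (838 to 933). The Pax5 intervals overlapped, with 428 CPM (349 to 520) and 431 CPM (399 to 466). In library 2 only Ebf1 had separate intervals, with 2649 CPM (2358 to 2965) against 1747 CPM (1645 to 1854). The median depth was 841 UMIs in the shallower and 1827.5 in the deeper cluster of library 1, and 775.5 and 1458 in library 2. The pro-B marker sum was also higher in the shallower cluster, with 5597 against 2900 CPM in library 1 and 2877 against 1555 CPM in library 2.

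Around Ebf1 and Pax5, 5 peaks each within 50 kb of the start sites were at least 4-fold more accessible in B-lineage nuclei, whereas around Foxo1 none was. Accessibility is given as peak CPM, the counts-per-million of a peak among all peak counts of the nuclei, and a peak was called higher at a fold of at least 4 in both libraries. Of the 118 peaks, all had enough counts, and 14 (11.9%) were higher in B-lineage nuclei, 5 of 15 at Ebf1, 5 of 15 at Pax5, 0 of 19 at Foxo1, 2 of 15 at Pou2af1 and 2 of 54 at Bach2. Over all 172260 peaks tested, 2.65% were higher, and 7.0% were at least 4-fold lower, whereas 0 of the 118 were lower. At a fold of 2 in both libraries, 33 of the 118 peaks were higher, against 5.86% of all peaks. The fold was above 1 in both libraries at 14 of 15 peaks at Ebf1 and at Pax5, 10 of 19 at Foxo1, 8 of 15 at Pou2af1 and 18 of 54 at Bach2. The Bach2 window was long because its annotated starts span chr4:32238804-32417435. The median log2 fold was 1.55 and 1.36 at Ebf1, 1.69 and 1.64 at Pax5, 0.03 and 0.29 at Foxo1, 0.24 and 0.49 at Pou2af1 and -0.37 and -0.08 at Bach2, against -0.48 and -0.47 over all peaks.

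**Figure D2:**
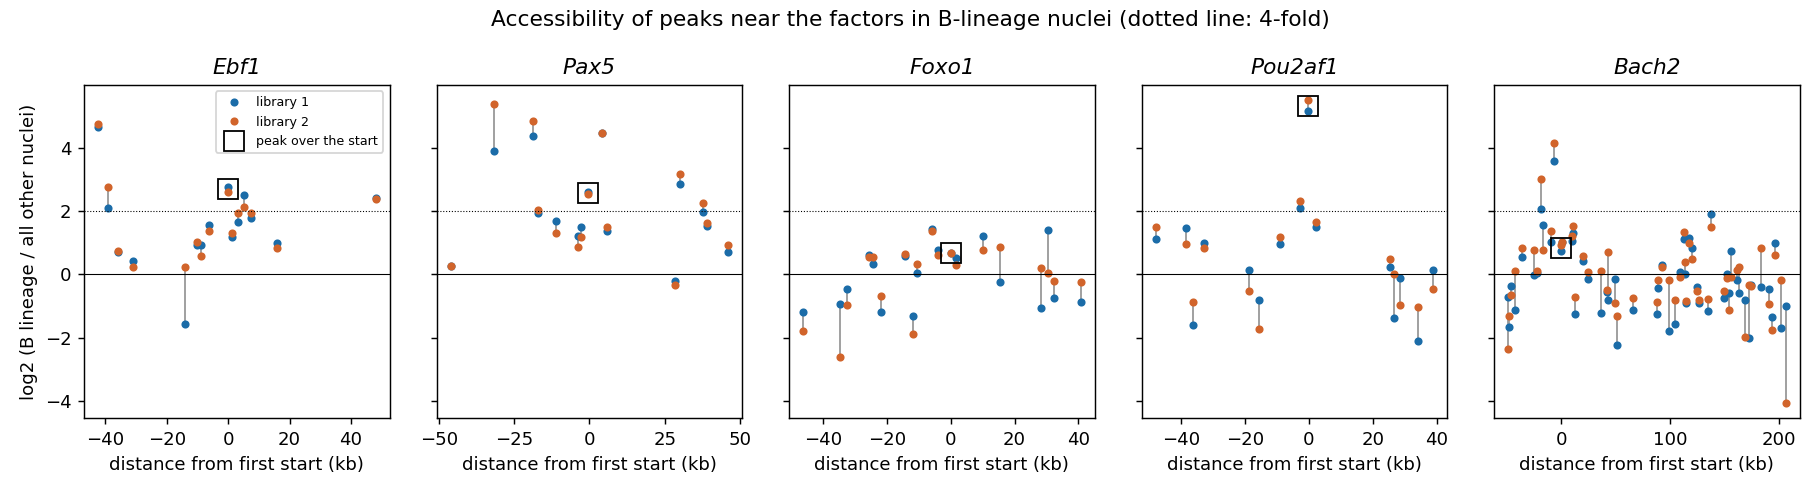
Log2 fold of accessibility in B-lineage nuclei over all other nuclei (y axis) for each peak within 50 kb of the start sites against its distance from the first start in kb (x axis), library 1 in blue and library 2 in orange, joined by a line, with a dotted line at 4-fold. The start-site peak, boxed, was far above the line at Pou2af1, above it at Ebf1 and Pax5, and below it at Foxo1 and Bach2.

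At Ebf1, the peak with the largest fold within 50 kb lay 42.4 kb upstream of the first start, between genes, at chr11:44574522-44575403. It had 16.2 peak CPM in B-lineage nuclei of both libraries against 0.542 and 0.498 in the rest, a fold of 25.5 and 27.3. It was present in pro-B-like nuclei, with 15.5 (13.2 to 18.1) and 15.2 (11.5 to 19.7), and in B-like nuclei, with 24.4 (15.6 to 36.5) and 28.2 (12.9 to 53.5). Lymphoid-primed multipotent-like nuclei had 1.48 (0.545 to 3.23) in library 1 and 0 (up to 0.967) in library 2, and HSC-like nuclei had 0 (up to 0.787) and 0.468 (0.0777 to 1.498). The octamer shown above lies at chr11:44574904-44574911 within this peak. The peak over the start, chr11:44616759-44617605, which also covers the start of Gm37695, had the most counts within 50 kb in B-lineage nuclei, with 42.8 and 38.1 peak CPM against 6.24 and 6.14 in the rest. Its level in lymphoid-primed multipotent-like nuclei, 14.2 (10.8 to 18.4) and 13.8 (10.3 to 18.0), lay between the B lineage and the rest. The lowest fold within 50 kb was that of a peak 14.2 kb upstream, with 0.336 and 1.18 on 6 and 11 B-lineage counts.

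Peaks in the introns of Ebf1 beyond 50 kb, which were looked at after their values were seen, held folds as large. Of 27 peaks in the gene body outside the window, 11 were called higher. The peak at chr11:44950106-44950989, 333.2 kb from the start, had 29.0 and 29.3 peak CPM in B-lineage nuclei against 1.0 and 0.887 in the rest (26.5-fold and 29.7-fold), and that at chr11:44945479-44946345 had 10.8 and 11.2 against 0.323 and 0.332 (25.7-fold and 26.1-fold). The last peak inside the window, 48.1 kb from the start, had folds of 5.29 and 5.26, and the first outside it, at 64.9 kb, 2.70 and 2.64. In the gene bodies of Pax5 and Foxo1, 1 further peak each was higher, and in that of Bach2 1 was lower, at 0.220 and 0.240 of the level in the rest.

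At Pax5, 2 of the 7 peaks upstream of the gene were at least 4-fold higher in the B lineage. The peak 31.6 kb upstream, chr4:44741630-44742504, had 5.88 and 9.22 peak CPM in B-lineage nuclei against 0.302 and 0.124 in the rest (14.9-fold and 41.5-fold). The peak 18.7 kb upstream, chr4:44728732-44729616, had 15.6 and 14.9 against 0.657 and 0.415 (20.7-fold and 29.1-fold). Both are between genes, and the second had separate intervals in the B stages of library 1. The peak at 31.6 kb had 6.34 (4.88 to 8.08) in pro-B-like and 1.04 (0.0263 to 5.79) in B-like nuclei, with overlapping intervals, and that at 18.7 kb had 16.5 (14.1 to 19.1) and 6.24 (2.29 to 13.6), with separate ones. In library 2 the values were 9.87 and 1.57 for the first and 15.3 and 9.39 for the second, with overlapping intervals. Of the other 5 upstream peaks, those 17.2, 11.1, 3.9 and 2.7 kb from the start had folds of 1.82 to 4.14 and the one 46.1 kb away was nearly even. As shown above, the peak at 31.6 kb holds the EBF palindrome and the E2A sequence, and the peak at 18.7 kb the E2A sequence without the palindrome.

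The Pax5 start peak, chr4:44710446-44711326, had 16.7 and 16.4 peak CPM in the B lineage against 2.65 and 2.72 in the rest. An intron peak 4.3 kb from the start, at chr4:44705780-44706605, named here after its values were seen, had 32.3 and 32.2 against 1.37 and 1.36, a fold of 22.1 in both libraries. A peak 6.0 kb from the start was also open outside the B lineage, with 60.0 and 56.2 against 23.3 and 19.997 (2.57-fold and 2.80-fold). The peak with the most counts in the window lies over the start of the neighbouring gene Zcchc7 and was nearly even, with 65.7 and 66.0 against 54.3 and 55.3. The lowest fold within 50 kb was that of an intron peak at 28.5 kb, 0.869 and 0.787. The annotated genes Gm12462, 5730488B01Rik, 4930517J16Rik and Mir5120 overlap Pax5, as others do the remaining 4 genes, and it is unknown here how reads shared with them were assigned.

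The Pou2af1 start had the highest fold of the 5 start-site peaks. The peak at chr9:51212966-51213828 had 62.9 peak CPM (58.3 to 67.8) in B-lineage nuclei of library 1 and 57.2 (50.1 to 65.0) in those of library 2, against 1.67 and 1.15 in the rest (35.7-fold and 45.7-fold). Outside the B lineage its highest levels were in pro-NK/T-like nuclei, with 13.9 and 9.69, among populations with at least 50 nuclei. Lymphoid-primed multipotent-like nuclei had 5.81 (3.70 to 8.68) and 2.36 (1.08 to 4.48), and HSC-like nuclei 0.640 (0.132 to 1.87) and 0 (up to 0.690). The second peak, 2.6 kb upstream at chr9:51210664-51211537, had 8.03 and 10.2 against 1.78 and 1.95 (4.32-fold and 5.03-fold), and the lowest fold, 0.231 and 0.487, was that of a peak 34.0 kb downstream of the start.

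Foxo1 and Bach2 had start sites that were open in every population with at least 50 nuclei. The Foxo1 start peak, chr3:52267868-52268777, had 39.7 and 43.6 peak CPM in the B lineage against 24.9 and 27.1 in the rest (1.59-fold and 1.61-fold), and outside the B lineage it ranged from 20.3 to 51.7 in library 1 and from 23.8 to 39.2 in library 2. The Bach2 start peak, chr4:32238226-32239082, had 44.6 and 47.1 against 26.6 and 24.8 (1.67-fold and 1.89-fold), with 7.95 and 12.97 in neutrophil progenitor (NeuP)-like nuclei as the lowest levels and 76.7 (49.4 to 114) in B-like nuclei of library 2. The highest folds within 50 kb of the Foxo1 start were 2.71 and 2.57, at a peak 5.7 kb upstream. At Bach2, a peak between genes 6.9 kb upstream, chr4:32231457-32232295, had 10.5 and 9.96 against 0.782 and 0.464 (12.0-fold and 17.8-fold). Its level was 10.2 (8.30 to 12.3) and 10.1 (7.18 to 13.9) in pro-B-like nuclei and at most 2.93 (0.355 to 10.6) in cDCP-like nuclei, where Bach2 RNA was second only to the B lineage. A further peak 18.8 kb upstream had folds of 4.23 and 8.09 and reached 7.33 (2.38 to 17.1) and 4.53 (0.933 to 13.2) in cDCP-like nuclei, against 7.91 (6.28 to 9.84) and 10.1 (7.18 to 13.9) in pro-B-like nuclei. The lowest fold in the Bach2 window by the mean of both libraries on the log2 scale, 0.502 and 0.0593, was that of an intron peak 206.1 kb from the first start, on 42 and 1 counts.

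**Figure D3:**
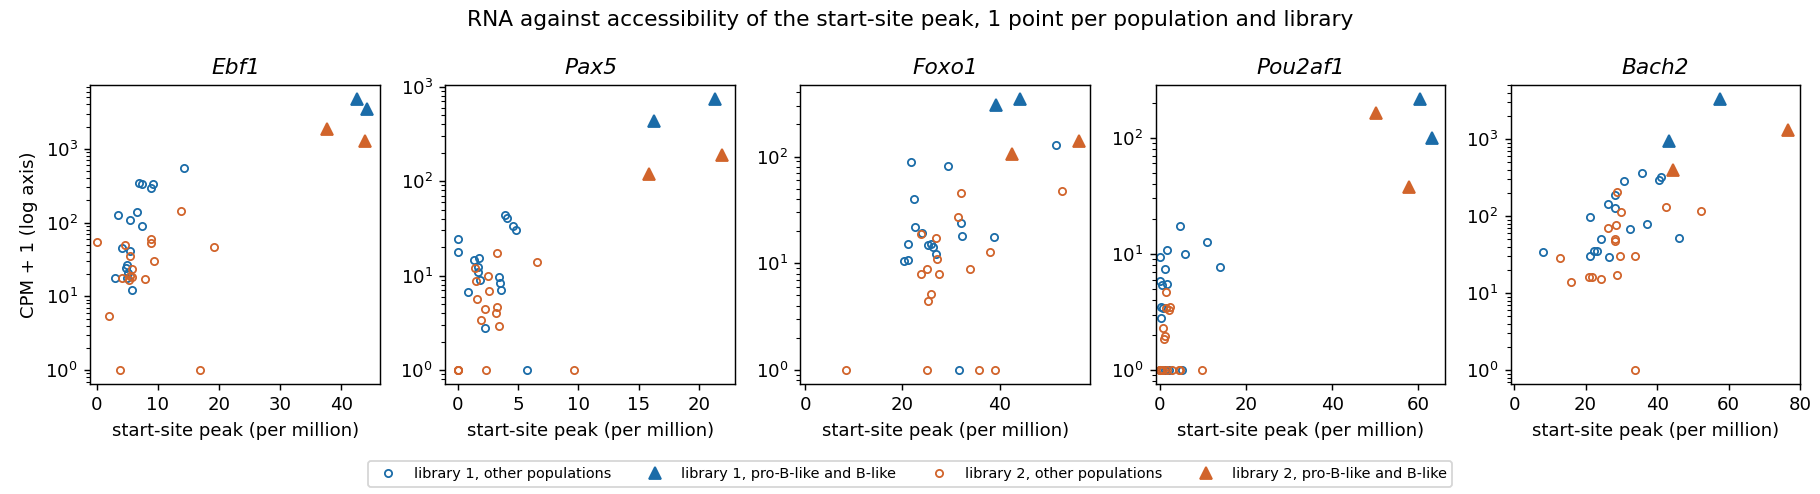
RNA level (y axis, CPM + 1 on a log axis) against accessibility of the start-site peak (x axis, peak CPM) for each population, with library 1 in blue and library 2 in orange, pro-B-like and B-like nuclei as triangles and other populations as circles. At Ebf1, Pax5 and Pou2af1 the triangles lay to the right of all circles, whereas at Foxo1 and Bach2 circles and triangles overlapped on the x axis.

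How often the motifs stood in the 300-base centres of the peaks of the 5 genes was set beside their share in all peaks. The EBF palindrome was in 3 of the 118 peaks and in 1.05% of all 174282 peaks with a 300-base centre, and in 1 of the 14 higher peaks. The E2A sequence was in 31 of 118 (26.3%) and 6 of 14, against 19.7% of all peaks, and the octamer in 4 of 118 and 2 of 14, both upstream of Ebf1, against 1.65%. A forkhead sequence (GTAAACA) was in 4 of 118 and 0 of 14, against 3.76%, and the core of AP-1 and Maf-type sites that BACH2 recognizes (TGAGTCA) in 12 of 118 and 0 of 14, against 8.37%. The PAX5 core (GCGTGAC) was in 0 of 118, against 1.09%. RUNX matches were in 9 of 118 and 1 of 14, against 12.0%, and ETS matches (GAGGAAGT) in 6 of 118 and 1 of 14, against 9.80%. In promoters, of which all 5 genes had an entry in the RefSeq table of this build, the EBF palindrome was in 0.904% and was found among the 5 genes in that of Foxo1, while 1 of the 2 Ebf1 promoter entries held a RUNX match, against 5.27% of promoters.

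In pro-B-like nuclei, RNA of all 5 genes was lower in library 2 than in library 1, while the accessibility around them was nearly equal. The log2 ratio of library 2 over library 1 was -1.35 (-1.44 to -1.27) for Ebf1, -1.88 (-2.22 to -1.56) for Pax5 and -1.54 (-1.91 to -1.20) for Foxo1. It was -1.41 (-2.05 to -0.82) for Pou2af1 and -1.29 (-1.48 to -1.11) for Bach2. All 5 were at least 1.5-fold lower, but so were 50.4% of the 3041 genes with enough UMIs, and 1.68% were at least 1.5-fold higher. The median gene had a ratio of -0.60, so the ratios relative to it were -0.75 for Ebf1, -1.28 for Pax5, -0.94 for Foxo1, -0.81 for Pou2af1 and -0.69 for Bach2. Among the 3041 genes, Pax5 had the lowest ratio, Foxo1 ranked 26 from the bottom and Bach2 118.

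Scaling that takes the median gene as even shifted every ratio by the same amount, the median of -0.60, and so reduced their size. Since all 5 ratios lay below that median, their direction could not change. This scaling is therefore no check separate from the ratios relative to the median gene. By median-of-ratios scaling the ratio was -0.75 for Ebf1, -1.27 for Pax5, -0.93 for Foxo1, -0.78 for Pou2af1 and -0.69 for Bach2, and all 5 stayed at least 1.5-fold lower, as did 7.04% of the genes tested, while 12.5% were at least 1.5-fold higher. With the genes at the ribosomal RNA locus left out of the totals, all 5 were again lower, as were 21.8%. Over 11 alternatives in all, the ratio of each gene stayed negative, and the value nearest to 0 was that of Bach2 at -0.69. The 5 genes were chosen with the Pax5 and Foxo1 ratios known.

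Outside the pro-B-like nuclei the ratios differed between populations and are given as values, since free RNA from other nuclei was not measured. Over all nuclei outside the B lineage the log2 ratio was -1.98 (-2.17 to -1.81) for Ebf1, -1.42 (-1.92 to -0.94) for Pax5, -1.61 (-1.98 to -1.24) for Foxo1, -1.77 (-2.78 to -0.83) for Pou2af1 and -1.55 (-1.72 to -1.38) for Bach2, where the median gene was at -0.63. Over all nuclei, of which library 1 held more of the B lineage, it was -2.73 for Ebf1 and -2.23 for Bach2. The Ebf1 ratio was -2.96 (-4.14 to -1.97) in EryP-like, -2.70 (-4.21 to -1.49) in pro-NK/T-like and -2.69 (-5.81 to -0.71) in pDCP-like nuclei. In library 1 these ratios rested on UMIs in 19, 10 and 4 nuclei, with 70 of the 85 EryP-like UMIs in 4 nuclei. In GMP-like, NeuP-like, megakaryocyte progenitor (MkP)-like and HSC-like nuclei the Ebf1 ratio was -2.02, -1.86, -1.86 and -1.44. The part of free RNA in these ratios was not tested. In clusters 0, 1 and 5, which have no name, the Ebf1 intervals included 0, with -0.72 (-1.45 to 0.02), -0.04 (-0.87 to 0.83) and -0.40 (-1.35 to 0.52), where the median gene was at -0.67, -0.66 and -0.59. The same held for Foxo1 in HSC-like nuclei and in clusters 0 and 5, and for Bach2 in pDCP-like nuclei. In B-like nuclei Ebf1 was at -1.46 (-1.78 to -1.15), Bach2 at -1.36 (-1.67 to -1.06), Pax5 at -1.99 (-2.87 to -1.22) and Foxo1 at -1.34 (-2.41 to -0.40). The interval of Pou2af1 there included 0, with -0.41 (-1.44 to 0.53). The median of the 174 genes with enough UMIs in B-like nuclei was at 0.01. With few UMIs in these nuclei, only genes of high level passed, against 3041 genes in pro-B-like nuclei. The medians of the populations are thus not on like sets of genes. In the deeper and the shallower pro-B-like cluster, Ebf1 was at -1.36 and -1.40. For Pou2af1, the 27 UMIs in pro-B-like nuclei of library 2 set the width of its interval.

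No such difference was detectable in the chromatin. The summed peaks within 50 kb had a log2 ratio of -0.02 (-0.17 to 0.12) at Ebf1, 0.01 (-0.09 to 0.12) at Pax5, 0.01 (-0.16 to 0.17) at Foxo1, -0.12 (-0.30 to 0.05) at Pou2af1 and 0.09 (-0.01 to 0.19) at Bach2. As peak CPM these were 143 and 141 at Ebf1, 273 and 276 at Pax5, 111 and 112 at Foxo1, 99.95 and 91.7 at Pou2af1 and 293 and 313 at Bach2. Of the 20 peaks with at least 100 counts in each library, 0 differed by 1.5-fold, with ratios from -0.39, at a Bach2 intron peak 120.0 kb from the start, to 0.38, at a peak 1.1 kb from the Ebf1 start. Over all 18177 peaks tested, 0.160% were lower and 0.649% higher in library 2, and the median was -0.01. Differences below about the width of these intervals were not detectable at this depth.

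**Figure D4:**
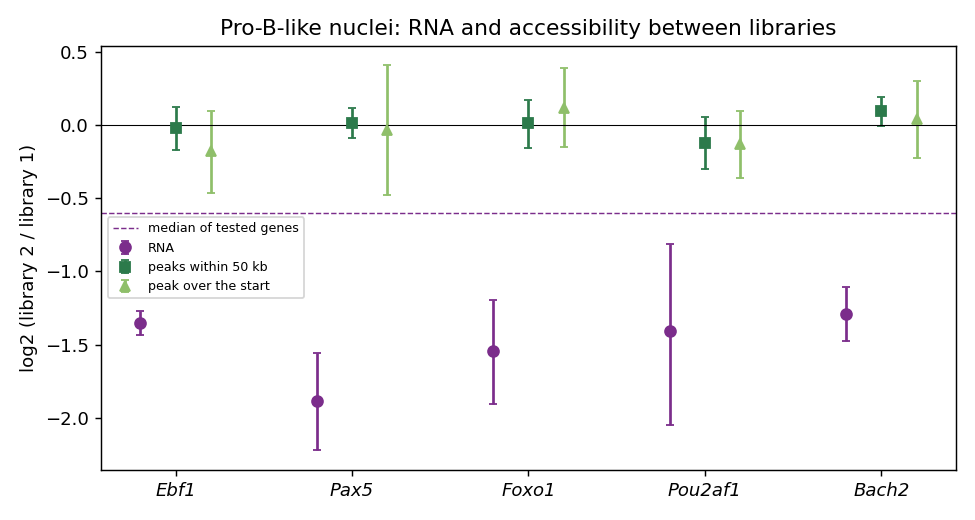
Log2 ratio of library 2 over library 1 in pro-B-like nuclei (y axis) for the RNA of each gene (purple circles), its peaks within 50 kb (dark green squares) and its start-site peak (light green triangles), with 95% intervals. All RNA ratios lay below the dashed line at the median gene (-0.60), whereas all accessibility intervals included 0.

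In lymphoid-primed multipotent-like nuclei, the 14 peaks that were higher in the B lineage were more open where Ebf1 RNA was detected. In library 1 the 109 nuclei with an Ebf1 UMI had 92.6 peak CPM in these peaks (75.2 to 113) and the 326 without had 30.9 (24.9 to 37.9). In library 2 the 59 nuclei with one had 74.7 (50.6 to 106) and the 457 without had 26.0 (20.8 to 32.0). The nuclei with and without had near depths, with medians of 1805 and 1651.5 UMIs in library 1 and 1420 and 1398 in library 2. With 0, 1 and at least 2 Ebf1 UMIs the level was 30.9, 61.8 (37.5 to 96.0) and 106 (83.7 to 132) in library 1 and 26.0, 40.8 (19.99 to 74.0) and 132 (80.8 to 204) in library 2.

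The difference was found at several of the loci. In library 1, the 5 Ebf1 peaks had 36.1 (25.6 to 49.6) against 14.9 (10.8 to 19.9), the 5 Pax5 peaks 26.1 (17.3 to 37.9) against 8.36 (5.41 to 12.3) and the 2 Pou2af1 peaks 24.7 (16.1 to 36.2) against 4.51 (2.44 to 7.64), while the intervals of the 2 Bach2 peaks overlapped. In library 2 the intervals were separate for the Ebf1 peaks, with 36.7 (20.6 to 60.6) against 14.8 (11.02 to 19.5), and the Pax5 peaks, with 23.3 (10.9 to 43.4) against 6.02 (3.70 to 9.24). The summed pro-B markers moved with the Ebf1 UMIs too, from 943 to 1752 and 2111 CPM in library 1 and from 515 to 1050 and 974 CPM in library 2. Without the nuclei in the top 8% of doublet scores, the levels with and without Ebf1 were 81.6 (63.8 to 103) and 30.6 (24.3 to 38.0) in library 1 and 76.6 (51.1 to 110) and 27.0 (21.4 to 33.6) in library 2. Such nuclei were 14.7% of those with and 10.4% of those without Ebf1 in library 1, and 6.78% and 10.1% in library 2. The part of the pro-B marker level in the difference was not tested. Common lymphoid progenitors, which had no marker list, may be among these lymphoid-primed multipotent-like nuclei.

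In pro-B-like nuclei, by the same measure, no difference in these peaks with detection of Ebf1 was detectable. Nuclei with and without an Ebf1 UMI had 236 (227 to 246) and 240 (194 to 295) peak CPM in library 1 and 230 (214 to 248) and 242 (201 to 289) in library 2. In HSC-like nuclei, with 23 and 18 nuclei holding an Ebf1 UMI, the values were 18.2 (5.46 to 44.3) and 16.2 (12.7 to 20.4) in library 1 and 29.6 (6.10 to 86.4) and 20.5 (16.8 to 24.8) in library 2. In EryP-like nuclei, where those with Ebf1 were deeper at medians of 2140 against 1547 UMIs in library 1, they were 39.6 (15.9 to 81.7) and 16.4 (11.9 to 21.9), and 54.4 (13.1 to 148) and 14.7 (10.1 to 20.7), on 19 and 8 nuclei, also with overlapping intervals. As in lymphoid-primed nuclei, the EryP-like level was higher with Ebf1 in both libraries. On so few nuclei, a difference as large as the lymphoid-primed one cannot be told from none, and the part of doublets was not tested.

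**Figure D5:**
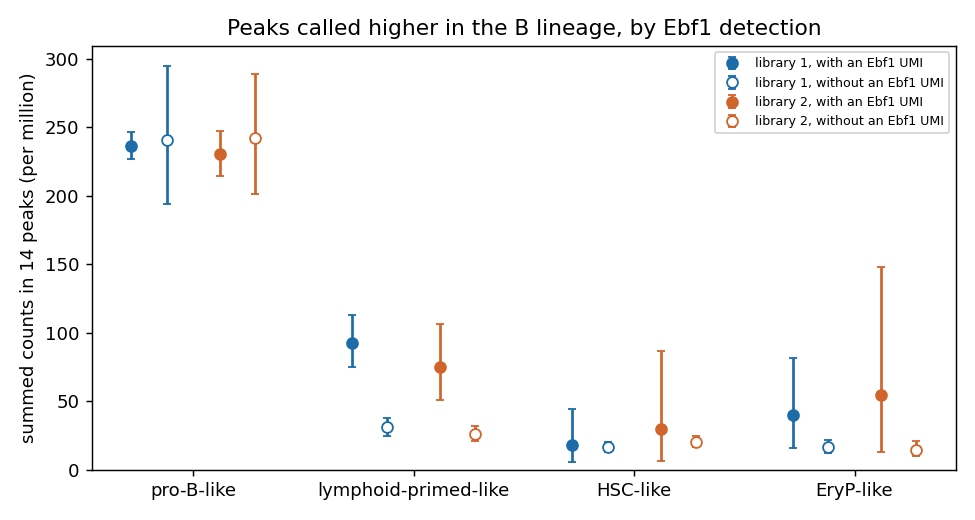
Summed peak CPM (y axis, labelled as counts-per-million) in the 14 peaks that were higher in the B lineage, for nuclei with (filled) and without (open) an Ebf1 UMI in 4 populations, library 1 in blue and library 2 in orange, with 95% intervals. The filled and open intervals were separate in lymphoid-primed nuclei of both libraries and overlapped in the other 3 populations. In HSC-like and EryP-like nuclei, with few nuclei holding Ebf1, the filled points also lay above the open ones.

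The genes around the 5 factors in the B cell network were followed in 7 lists, counted as for the factors themselves. The lists were chosen with earlier results of these data known, and some listed genes were also markers that named the pro-B-like clusters. The folds and counts of the lists are therefore no independent evidence. Over all genes tested, 1.13% were at least 4-fold higher in B-lineage nuclei of both libraries and 0.431% lower. Of 16 upstream regulators, 3 were at least 4-fold higher in B-lineage nuclei of both libraries and 0 lower. These were Ets1, an ETS factor, with 235 and 132 CPM against 25.7 and 14.5 (8.85-fold and 8.59-fold), the interleukin 7 receptor gene Il7r, itself a pro-B marker, with 7.58-fold and 12.0-fold, and the Ikaros family gene Ikzf3, with 8.42-fold and 10.1-fold. Tcf3, which encodes E2A, had a fold of 3.09 and 2.66 and did not reach the threshold. The median log2 fold of the list was 0.75 and 0.65.

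Genes known as targets of EBF1 or PAX5 formed the list with the most calls. Of 22 such genes, 16 were higher and 2 lower, but Blnk, Lef1, Igll1, Vpreb1, Vpreb2, Vpreb3, Cd79a, Cd79b and Bfsp2 are also pro-B markers. Cplx2 and Cecr2 were among the leading genes of the deeper pro-B-like cluster. Blnk, a linker of pre-B receptor signalling, was 23.9-fold and 30.4-fold higher. Lef1, a Wnt pathway factor, was 34.8-fold and 47.9-fold higher, Cecr2, a chromatin remodeller gene, 42.8-fold and 45.3-fold, and Cplx2, a complexin gene, 34.7-fold and 73.8-fold. Igll1 and Vpreb1, the surrogate light chain genes, were 14.1-fold and 19.1-fold and 12.8-fold and 16.9-fold higher. The lower genes were Ncam1, an adhesion molecule, at 2.07 and 1.22 CPM against 22.4 and 14.9, and Pdgfrb, a growth factor receptor, at 2.07 and 1.22 CPM against 13.6 and 11.5. Each had 4 and 1 UMIs in B-lineage nuclei, so the size of these folds is imprecise. Further higher genes, in the range of 4.65-fold to 17.6-fold, were Cd79a, Cd79b, Vpreb2, Vpreb3, Cd72, Bfsp2, Blk, Slamf6 and Mzb1. The list's median log2 fold was 2.98 and 3.29.

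Of 12 FOXO1 targets, 3 were higher and 0 lower, against 1.13% and 0.431% of all genes, with Rag1, a recombinase gene, at 8.14-fold and 8.60-fold beside Il7r and Ikzf3, which are also on the upstream list. Rag1 and Il7r are pro-B markers. Rag2 had folds of 3.42 and 4.74 on 22 and 10 UMIs, and Irs2 had 4.46 in library 1 and 1.18 in library 2. Of 16 antagonists and factors of alternative fates, 13 had enough UMIs and 0 were called in either direction. The median log2 fold of this list was -0.99 and -0.08. Its lowest folds in library 1 were those of Gata2 and Csf1r. Gata2 had 5.18 and 6.12 CPM in B-lineage nuclei against 39.3 and 17.7 CPM in the rest, a log2 fold of -2.71 and -1.39, and Csf1r had -3.02 and -0.73. Irf8, Cebpa, Tcf7, Prdm1 and Gata1 were below 0 in library 1 and above it in library 2, all but Irf8 on at most 5 UMIs there. None of the 3 octamer and OBF1 partners tested passed the threshold, with Pou2f1, which encodes OCT1, at 2.76-fold and 2.52-fold and Pou2f2 at 0.967 and 1.05. The 1 BACH2 target tested, Prdm1, had 1 and 2 UMIs in B-lineage nuclei, and 0 of 4 paralogs tested were called, with Foxo3 at 0.651 and 0.849 and Bach1 at 0.963 and 0.977.

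Between the libraries, most upstream regulators and EBF1 and PAX5 targets were lower in library 2 in pro-B-like nuclei by CPM, but few were once the median gene was taken as even. Of genes with enough UMIs, 12 of 13 upstream regulators, 13 of 14 EBF1 and PAX5 targets, 3 of 6 FOXO1 targets, 0 of 3 antagonists and 1 of 1 in both the octamer and the paralog list were at least 1.5-fold lower, and 0 were higher. The background is the 50.4% given above. By median-of-ratios scaling, 3 of 13 upstream regulators, 1 of 14 EBF1 and PAX5 targets, 1 of 6 FOXO1 targets and none of the other lists were lower, and 1 EBF1 and PAX5 target and 1 antagonist were higher, while 7.04% of all genes tested were lower and 12.5% higher. The median log2 ratio was -1.01 for upstream regulators, -0.84 for EBF1 and PAX5 targets, -0.73 for FOXO1 targets and -0.12 for antagonists, against -0.60 over all genes. Cplx2 was the target that was not lower by CPM, with a ratio of 0.16.

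The genes whose levels were most like those of the factors were found by Pearson correlation of log2(CPM + 1) over 38 points, 19 populations in each of 2 libraries, among 6907 genes, with the 5 factors themselves left out of the lists. The points share libraries, depth and the B-lineage contrast, so the values are descriptions. Among the genes most like Ebf1 were Blnk (0.853), Cecr2 (0.838), Cd79a (0.818) and Gfra1 (0.808). Among those most like Pax5 were Akap12 (0.928), Cecr2 (0.807), Gfra1 (0.806) and Blnk (0.791). Outside the factors, Pou2af1 was most like Akap12 (0.785), Slamf6 (0.777), Bank1 (0.774), Cecr2 (0.766) and 1700027J07Rik (0.759). Among those most like Foxo1 were Blnk (0.763), Ube2h (0.733), Jakmip1 (0.717) and Purb (0.701). Outside the factors, Bach2 was most like Ighm, the heavy chain gene (0.899), then Blnk (0.811), Trp53i11 (0.791), Itpr2 (0.784) and Aff3 (0.783). Among the factors themselves, Pax5 and Pou2af1 were most alike (0.836), followed by Foxo1 and Bach2 (0.785), and Pax5 and Foxo1 least (0.550).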

How the data were processed

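Counts were used as deposited. The authors aligned the reads to GRCm38 (mm10) and counted UMIs per gene and transposase cuts per peak with Cell Ranger ARC 2.0.0, and the submitters' processing notes also name Seurat 4.0.3 and Signac 1.3.0. The deposited matrix held raw counts of both libraries, and 0 columns of per-sample values were left unused.

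Nuclei with at least 200 genes and 1000 to 50000 peak counts were kept. They were clustered from 2000 variable genes (30 principal components) and the peaks (latent semantic indexing from component 2), with correction between libraries, at resolution 0.8 (Seurat 5.3.0, irlba 2.3.5.1 and Matrix 1.6.5 in R 4.3.3), leaving out the 5 genes and the peaks within 50 kb. A cluster was named where at least 3 markers of a list were raised with a mean log2 difference of at least 1, each on at least 10 UMIs. The list also had to hold at least as many of the 10 leading genes of the cluster as any other list. A further condition on these leading genes was dropped after the marker table was seen. The doublet caller marked 4 nuclei (0.0294%) and was taken as not working, so the 1028 nuclei in the top 8% of scores were left out as an alternative.

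UMIs were summed per population and library and given as CPM, and peak counts as peak CPM (counts-per-million of all peak counts). Folds used pseudocounts of 1 CPM and 0.1 peak CPM. Genes needed 20 UMIs and peaks 100 counts, in B-lineage nuclei or the rest for the first contrast and in each library for the second, where a fold of 1.5 was used. Peak intervals were computed on halved counts, since most peak counts were even. Since the labels do not tie libraries to groups, no test was run. Genes were annotated with GENCODE vM21, which matched 99.6% of gene IDs. The genes at the ribosomal RNA locus were Gm42418, Gm26917 and AY036118. Scripts ran in Python 3.11.15 with numpy 2.4.6, scipy 1.17.1 and pandas 2.3.3, were tested on simulated data, and figures were drawn with matplotlib 3.10.9.

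The members and lists were chosen with earlier results of these data known. For each gene, the peaks named were the peak over the start, the peak with the most B-lineage counts, those with the highest and lowest folds and those with the highest and lowest library ratios. Peaks and listed genes outside this rule were chosen after their values were seen. Values of some genes that the rules would name are not reported here.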

Additional observations from a re-analysis of the deposited data

How the results depend on the processing

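The 5 genes were at least 4-fold higher in B-lineage nuclei under all 12 alternatives. They were at least 1.5-fold lower in library 2 in pro-B-like nuclei under all alternatives except a minimum of 500 genes per nucleus, where 4 were: there Pou2af1 still had a log2 ratio of -1.17 but no longer 20 UMIs in each library. The number of peaks higher in the B lineage was 14 and became 7 for peaks within 10 kb, 33 at a fold of 2, against 5.86% of all peaks, and 27 of 187 with peaks in the gene body included, the last chosen after seeing the data. Under the other alternatives it lay between 11 and 15. Leaving out the nuclei with shared barcodes or the shallower pro-B-like cluster, also chosen after seeing the data, gave 14 and 15. The number of peaks that differed between the libraries stayed at 0. Log2 ratios of library 2 over library 1 stayed negative over 11 alternatives, from -1.40 to -0.75 for Ebf1, -2.04 to -1.27 for Pax5, -1.65 to -0.93 for Foxo1, -1.45 to -0.78 for Pou2af1 and -1.79 to -0.69 for Bach2. Of single values, 154 moved by less than their counting interval and 41 by more, and 0 changed sign.

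No paired analysis was possible because each group had 1 sample and no result came from a test. No replicate could be left out for the same reason. Depth limits Pou2af1 most, with 27 UMIs in pro-B-like nuclei of library 2, and populations of few nuclei.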
